A study of Homo sapiens with 12 samples.

Results

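The RB pocket proteins and the E2F transcription factors were followed in 2 melanoma cell lines and in a palbociclib-resistant derivative of each. The 10 genes are a list of names, with no threshold on a measured value, although earlier results of these data were known when it was drawn up. They are the pocket proteins RB1, RBL1 (p107) and RBL2 (p130), and the factors E2F1, E2F2, E2F3, E2F4, E2F5, E2F7 and E2F8. All 10 were listed among the 33932 genes of the A375 count table and the 32478 genes of the CHL1 count table, and all 10 passed the filter on low counts in every test. Their raw counts ran from 163 reads in the lowest library of E2F5 to 5865 reads in the highest library of E2F4.

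Palbociclib blocks CDK4 and CDK6, the kinases that start the inactivation of RB1. The resistant A375 cells (A375AR991) had been exposed to rising palbociclib for 7 months and the resistant CHL1 cells (CHL1AR991) for 3 months, and both were then kept in 4 µM of the drug. Their references were untreated A375 and CHL1 cells, 2 human melanoma lines, of which A375 is known to carry mutant BRAF and CHL1 is known to be wild type for it. According to the labels, cells were held in medium without palbociclib for 72 h before extraction. There were 4 groups of 3 libraries. The labels state neither separate cultures for the libraries of a group nor whether a resistant line is 1 clone, so p-values reflect library-to-library spread alone, which could be technical. Because the time under drug differed with the line, line and time cannot be told apart.

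Total counts per library ran from 25398920 to 29812686, so that a floor of 3 counts stood for 0.101 to 0.118 CPM, the reads of a gene scaled to the size of its library. The melanocyte lineage genes MITF, SOX10 and S100B were above 1 CPM in all 4 groups, and the melanocyte list summed to between 266 and 409 CPM in resistant A375, 431 and 587 CPM in parental A375, 1122 and 1302 CPM in resistant CHL1 and 1084 and 1316 CPM in parental CHL1. The pigment gene PMEL averaged at most 1.03 CPM and MLANA at most 0.705 CPM in any group. The pigment gene DCT averaged 18.4 CPM in resistant and 43.0 CPM in parental CHL1, and at most 0.412 CPM in A375. TYRP1 averaged 1.81 CPM in resistant and 0.219 CPM in parental A375, and 1.21 and 1.17 CPM in resistant and parental CHL1. TYR averaged at most 0.509 CPM in CHL1 and was not listed for A375. The keratinocyte and epithelium list summed to between 4.86 and 5.64 CPM in resistant A375 and 20.9 and 29.4 CPM in parental A375, nearly all from KRT14, and reached at most 4.89 CPM in CHL1. The fibroblast list summed to between 22.6 and 27.8 CPM in resistant A375 and 10.4 and 19.1 CPM in parental A375. The higher sum came mainly from COL1A2, which averaged 14.5 CPM in resistant and 0.399 CPM in parental A375. PDGFRB went the other way, with 3.76 CPM in resistant and 8.41 CPM in parental A375, and COL1A1 and DCN overlapped between these groups. The leukocyte list overlapped between the A375 groups (56.7 to 75.3 CPM in resistant cells, 57.0 to 82.9 CPM in parental cells), and the endothelial list reached at most 0.827 CPM. The part of these marker differences in the results below was not tested.

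In resting cells the pocket proteins bind E2F factors and recruit corepressors, which keeps genes for DNA replication silent. CDK4 and CDK6 with D-type cyclins, and then CDK2 with E-type cyclins, phosphorylate the pocket proteins and release the E2F factors. RB1 mainly holds the activators E2F1, E2F2 and E2F3, while RBL1 and RBL2 mainly work with the repressors E2F4 and E2F5 in the DREAM complex. E2F7 and E2F8 are atypical repressors that bind DNA without a dimerisation partner and dampen E2F activity late in the cycle. Several members are themselves E2F targets, so the family feeds back on its own transcription.

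The promoters of 4 members carried a core E2F octamer within 300 bases around their start, and they are shown because such octamers are known binding sequences of the E2F factors themselves. The octamers searched on both strands were TTTCCCGC, TTTCGCGC, TTTGCCGC and TTTGGCGC, and none of the matches overlapped another. Any of them occurred in 3.31% of the 35116 windows of the same length in the RefSeq promoter table (GRCh38.p14), each window running from 250 bases before to 50 bases after a start. E2F1 (chr20:33686336-33686635, minus strand) had matches at positions -33 and -20 from its start, RBL1 (chr20:37095948-37096247, minus strand) at -26 and -16, E2F2 (chr1:23531184-23531483, minus strand) at -42 and E2F3 (chr6:20401629-20401928, plus strand) at -53, the last in 1 of its 2 windows. Each promoter is printed 5′ to 3′ in the direction of its gene with the octamers in capitals.
E2F1: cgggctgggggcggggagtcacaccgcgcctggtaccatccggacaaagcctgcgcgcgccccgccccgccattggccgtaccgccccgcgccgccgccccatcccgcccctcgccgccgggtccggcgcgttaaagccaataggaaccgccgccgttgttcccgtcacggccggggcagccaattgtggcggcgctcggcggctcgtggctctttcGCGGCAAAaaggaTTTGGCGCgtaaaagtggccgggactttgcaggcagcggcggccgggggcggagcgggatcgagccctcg
RBL1: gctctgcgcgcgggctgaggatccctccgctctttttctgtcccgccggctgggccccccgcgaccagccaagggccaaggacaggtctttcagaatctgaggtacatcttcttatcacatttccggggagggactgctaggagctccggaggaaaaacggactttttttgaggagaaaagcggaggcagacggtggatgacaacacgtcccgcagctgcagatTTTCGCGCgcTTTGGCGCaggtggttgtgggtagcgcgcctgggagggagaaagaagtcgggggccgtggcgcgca
E2F2: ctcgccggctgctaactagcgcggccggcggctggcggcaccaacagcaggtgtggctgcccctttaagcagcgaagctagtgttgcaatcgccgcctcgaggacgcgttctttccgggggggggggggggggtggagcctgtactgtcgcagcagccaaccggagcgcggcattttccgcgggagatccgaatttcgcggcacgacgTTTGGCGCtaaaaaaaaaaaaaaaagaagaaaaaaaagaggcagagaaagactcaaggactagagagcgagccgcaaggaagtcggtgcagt
E2F3: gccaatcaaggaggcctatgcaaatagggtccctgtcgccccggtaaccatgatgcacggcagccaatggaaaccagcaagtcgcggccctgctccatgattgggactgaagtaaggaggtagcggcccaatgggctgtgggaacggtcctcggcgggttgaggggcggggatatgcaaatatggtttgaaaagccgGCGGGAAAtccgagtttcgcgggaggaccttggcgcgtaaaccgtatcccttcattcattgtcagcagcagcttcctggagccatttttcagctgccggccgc
RBL2, E2F4 and E2F7 had windows without these letters. The 1 window listed for RB1 lies away from the start that GENCODE release 29 gives, so it was not read as its promoter. The table has no entry for E2F5 and E2F8. These matches describe the letters and not binding.

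Levels are given below as CPM normalised with TMM factors over all 12 libraries, in library order 1 to 3 within a group. In bulk RNA, fewer cells carrying a transcript and less transcript per cell cannot be told apart. The first question was which members differed between resistant cells and the parental line they came from. Log2 fold changes of resistance, with their SE, put resistant cells over parental cells and come from a fit of that line alone (edgeR quasi-likelihood test, Benjamini-Hochberg adjustment over all genes), and a gene was called when its adjusted p fell below 0.05. In A375, 4 of the 10 members were called, against 28.3% of all genes tested. E2F5 rose, as 13.4% of genes did, and RB1, RBL1 and E2F4 fell, as 14.8% did. In CHL1, 2 of 10 were called, against 21.2% of all genes. RB1 fell, as 12.1% of genes did, and E2F3 rose, as 9.11% did. RB1 was the 1 member called in both lines, while E2F5, called in A375, just missed the threshold in CHL1. Resistant and parental libraries did not overlap for 4 members in A375, against 42.8% of genes, and for 4 in CHL1, against 36.9%. The median log2 fold change of the members was -0.15 in A375 and 0.06 in CHL1, beside medians near 0 over all genes tested.

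**Figure D1:**
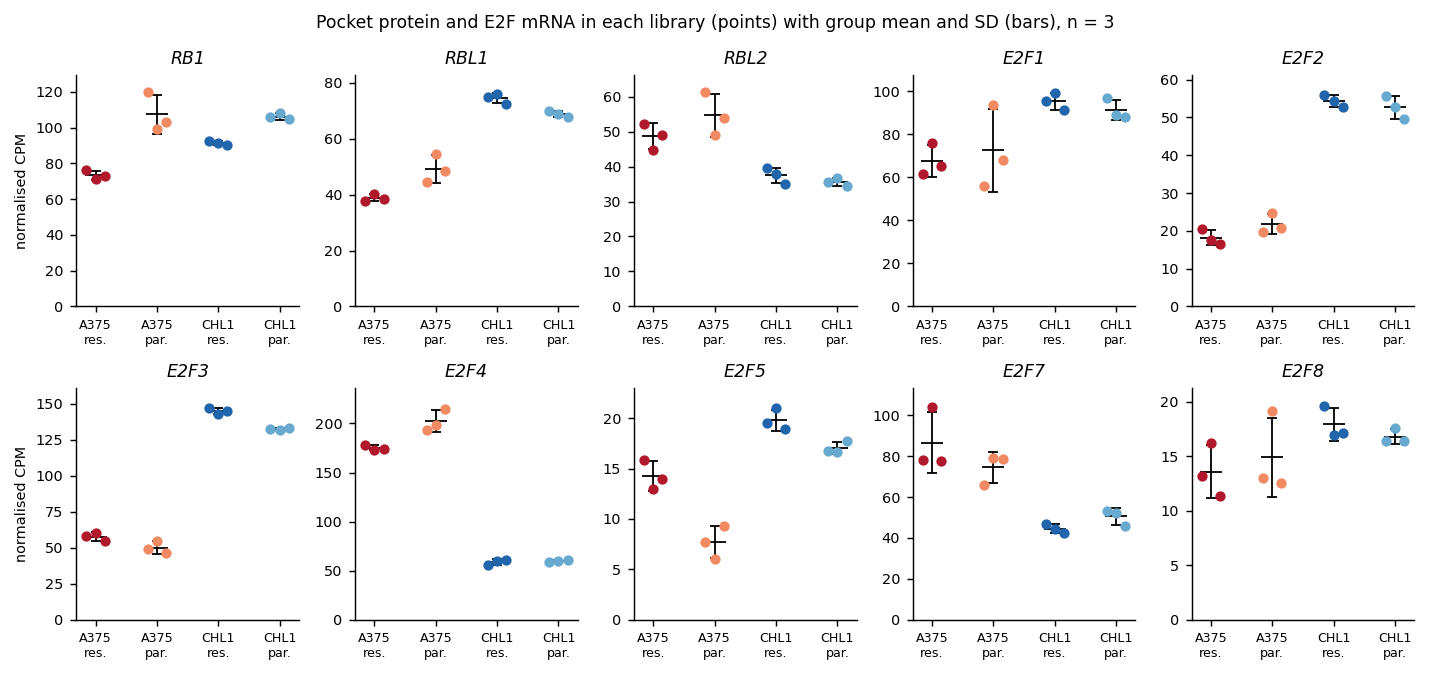
Normalised CPM of the 10 members on linear axes that start at 0, with 1 point per library and bars for the group mean and SD (n = 3), for resistant (res.) and parental (par.) cells of each line. RB1 lies at 71.0 to 76.1 CPM in resistant A375, below its other 3 groups, while E2F4 separates the lines most.

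Among the pocket proteins RB1, the retinoblastoma gene and main substrate of CDK4 and CDK6, had 76.1, 71.0 and 73.1 CPM in the resistant A375 libraries, against 120, 99.3 and 103 CPM in the parental ones. It had 92.7, 91.4 and 90.4 CPM in the resistant CHL1 libraries, against 106, 108 and 104 CPM in the parental ones. All 3 resistant libraries lay below all 3 parental libraries in each line. RB1 fell in both, with a log2 fold change of -0.55 ± 0.08 (edgeR adjusted p = 0.00081) in A375, a 1.46-fold lower level, and -0.22 ± 0.04 (edgeR adjusted p = 0.0041) in CHL1, a 1.16-fold lower level. Transcript remained in every library, at no fewer than 2038 raw reads.

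RBL1, which represses with E2F4 in cycling cells, had 37.9, 40.4 and 38.5 CPM in resistant A375, against 44.6, 54.6 and 48.4 CPM in parental A375. In CHL1 it had 74.9, 76.1 and 72.6 CPM in resistant cells, against 69.8, 69.0 and 67.9 CPM in parental cells. The groups did not overlap in either line, but resistant libraries were the lower ones in A375 and the higher ones in CHL1. RBL1 changed by -0.34 ± 0.08 (edgeR adjusted p = 0.0135) in A375. That call was lost without resistant replicate 1 (adjusted p = 0.0544) or without resistant replicate 3 (adjusted p = 0.0534). In CHL1 the log2 difference of 0.11 ± 0.05 did not pass (edgeR adjusted p = 0.12).

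RBL2, the pocket protein that predominates in quiescent cells, had 52.2, 44.8 and 49.0 CPM in resistant A375, against 61.2, 49.0 and 54.0 CPM in parental A375. Its CHL1 values were 39.5, 37.9 and 35.0 CPM in resistant cells, against 35.7, 36.7 and 34.3 CPM in parental cells. The groups overlapped in both lines, and neither log2 fold change passed (-0.17 ± 0.09 with adjusted p = 0.21 in A375, 0.07 ± 0.06 with adjusted p = 0.49 in CHL1, edgeR). RBL2 shares 610 exonic bases with AKTIP on the opposite strand, and the kit does not mark strand, so reads there cannot be assigned to 1 gene.

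Of the activator E2Fs, 1 was called, in 1 line. E2F1, the factor best known for driving S phase entry, had 61.7, 76.0 and 65.5 CPM in resistant A375, against 56.0, 93.7 and 68.1 CPM in parental A375, a spread so wide that the resistant libraries lay inside the parental range. In CHL1 it had 95.3, 99.4 and 91.2 CPM in resistant cells, against 96.9, 89.1 and 88.2 CPM in parental cells, again overlapping. Its 95% interval of the log2 difference ran from -0.43 to 0.23 in A375 and from -0.05 to 0.16 in CHL1.

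E2F2, another activator, had 20.3, 17.6 and 16.6 CPM in resistant A375, against 19.6, 24.7 and 20.8 CPM in parental A375. The groups overlapped through 1 resistant library, and the log2 difference of -0.25 ± 0.11 did not pass (edgeR adjusted p = 0.13). In CHL1 it had 55.9, 54.3 and 52.7 CPM in resistant cells, against 55.8, 52.7 and 49.7 CPM in parental cells, with a log2 difference of 0.04 ± 0.06 (edgeR adjusted p = 0.70).

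E2F3, also an activator, was called in CHL1, though the difference of its change between the lines did not pass (0.07 ± 0.09, edgeR adjusted p = 0.60). It had 147, 143 and 145 CPM in resistant CHL1, against 132, 132 and 133 CPM in parental CHL1, with no overlap and a rise of 0.13 ± 0.04 (edgeR adjusted p = 0.042), a 1.09-fold higher level. That call was lost in 8 of 15 alternatives, with adjusted p between 0.0642 and 0.183 there, among them without resistant replicate 1 (0.100) or 3 (0.0944) and without parental replicate 1 (0.118), 2 (0.101) or 3 (0.0642). In A375 it had 58.0, 60.3 and 54.4 CPM in resistant cells, against 49.3, 54.8 and 46.0 CPM in parental cells. Those groups overlapped, and the log2 difference of 0.20 ± 0.08 did not pass (edgeR adjusted p = 0.080), although without parental replicate 2 it did (0.27, adjusted p = 0.0232). It also passed in edgeR with upper quartile scaling (0.0390), with the replicate number as a block (0.0134) and in the fit of all 12 libraries (0.0206).

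Of the repressors, E2F5 showed the largest log2 fold change of the 10 members in A375. It had 15.9, 12.9 and 14.0 CPM in resistant A375, against 7.75, 6.05 and 9.27 CPM in parental A375. Every resistant library lay above every parental one, and E2F5 rose by 0.89 ± 0.16 (edgeR adjusted p = 0.0029), a 1.85-fold higher level. In CHL1 it had 19.5, 21.0 and 18.9 CPM in resistant cells, against 16.8, 16.6 and 17.7 CPM in parental cells. There too the groups did not overlap, but the log2 difference of 0.21 ± 0.07 just missed the threshold (edgeR adjusted p = 0.053). It passed in 5 of 15 alternatives, all with edgeR. These were DESeq2 size factors (adjusted p = 0.0480), library totals (0.0391), upper quartile scaling (0.0352), a 1 CPM filter (0.0448) and the replicate number as a block (0.04999). E2F5 shares 969 exonic bases, 16.3% of its exons, with RBIS on the opposite strand, and RBIS itself was not called in A375 (log2 difference -0.16, edgeR adjusted p = 0.12).

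E2F4, the usual DNA-binding partner of RBL1 and RBL2, had 178, 173 and 174 CPM in resistant A375, against 193, 199 and 215 CPM in parental A375. The groups did not overlap, and E2F4 changed by -0.21 ± 0.05 (edgeR adjusted p = 0.021). The call was lost without any 1 of the resistant replicates (adjusted p = 0.0519, 0.0737 and 0.0814), without parental replicate 3 (0.0922) and with upper quartile scaling (0.0513). In CHL1 it had 55.4, 59.5 and 60.9 CPM in resistant cells, against 59.2, 59.6 and 60.5 CPM in parental cells, which overlapped, with a log2 difference of -0.03 ± 0.05 (edgeR adjusted p = 0.73).

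Neither atypical repressor was called. E2F7 had 78.3, 104 and 77.6 CPM in resistant A375, against 65.7, 79.1 and 78.8 CPM in parental A375, and in CHL1 46.7, 44.6 and 42.6 CPM in resistant cells, against 53.4, 52.4 and 46.0 CPM in parental cells. The groups overlapped in both lines, with log2 differences of 0.22 ± 0.12 (edgeR adjusted p = 0.23) in A375 and -0.19 ± 0.07 (edgeR adjusted p = 0.070) in CHL1. The CHL1 difference passed without parental replicate 3 (adjusted p = 0.0195). E2F8 had 13.2, 16.2 and 11.3 CPM in resistant A375, against 13.0, 19.1 and 12.6 CPM in parental A375. In CHL1 it had 19.6, 17.0 and 17.1 CPM in resistant cells, against 16.4, 17.6 and 16.4 CPM in parental cells, overlapping as in A375. Its 95% interval of the log2 difference ran from -0.49 to 0.23 in A375 and from -0.07 to 0.25 in CHL1.

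**Figure D2:**
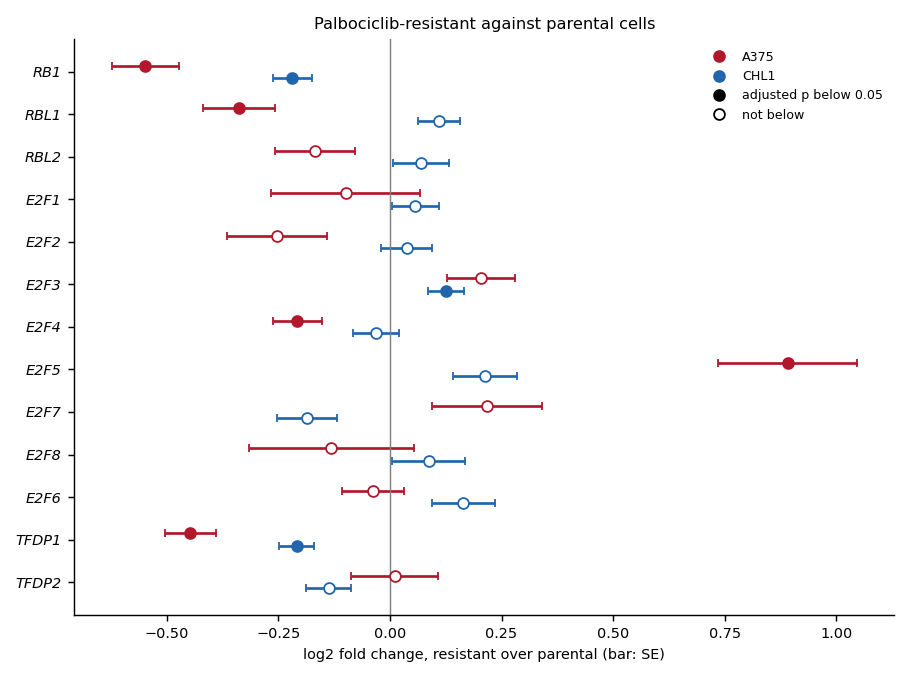
Log2 fold change of resistant over parental cells (points) with SE (bars) for the 10 members and for E2F6, TFDP1 and TFDP2, each line fitted alone, with filled points where the edgeR adjusted p was below 0.05. RB1 and TFDP1 lie left of 0 in both lines with filled points, while E2F5 lies at 0.89 in A375 and 0.21 in CHL1.

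Members did not scatter evenly in A375, where the parental libraries differed most. Parental replicate 2 lay above its group mean by 0.40 log2 units for E2F1, 0.39 for E2F8, 0.19 for E2F2 and 0.16 for RBL1, and below it for E2F5 (-0.33) and RB1 (-0.11). Parental replicate 1 lay on the other side for E2F1 (-0.34) and RB1 (0.16). Resistant replicate 2 lay on the same side as parental replicate 2 for E2F1 (0.17), E2F8 (0.27), RBL1 (0.05), E2F5 (-0.14) and RB1 (-0.05), but not for E2F2 (-0.04). Resistant replicate 1 shared the side of parental replicate 1 for E2F1 (-0.13) and RB1 (0.05). The median deviation of 37 E2F target genes was 0.12 in parental replicate 2 and -0.12 in parental replicate 1. It was 0.01 in resistant replicate 2 and 0.02 in resistant replicate 1. What same-numbered libraries share was not tested. Every CHL1 library stayed within 0.14 log2 units of its group mean for every member. Without parental replicate 2 the A375 differences of E2F1 and E2F8 changed sign to 0.13 and 0.09, neither of them called, and the calls of RB1 (-0.60), RBL1 (-0.26), E2F4 (-0.22) and E2F5 (0.74) held.

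The E2F dimerisation partners were read beside the members. TFDP1 (DP1), with which E2F1 to E2F5 bind DNA, had 302, 274 and 280 CPM in resistant A375, against 368, 402 and 395 CPM in parental A375, and in CHL1 196, 203 and 202 CPM in resistant cells, against 229, 232 and 233 CPM in parental cells. The resistant libraries were lower without overlap in both lines, and TFDP1 changed by -0.45 ± 0.06 (edgeR adjusted p = 0.00054) in A375 and by -0.21 ± 0.04 (edgeR adjusted p = 0.0025) in CHL1. TFDP2, its paralog, was not called (0.01 ± 0.10 in A375, -0.14 ± 0.05 in CHL1). E2F6, a repressor that does not bind pocket proteins, was not called either (-0.04 ± 0.07 in A375, 0.16 ± 0.07 in CHL1). TFDP3 was not tested.

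RB1 and TFDP1 both lie on chromosome 13, where many of their neighbours were lower in resistant A375 too. In A375 the 20 nearest tested coding genes of RB1 had a median log2 fold change of -0.47, with 13 called lower and 1 called higher, and the 16 such genes around TFDP1, near the chromosome's end, had a median of -0.29 with 11 called lower, against 14.8% of all genes called lower. Over all 237 tested coding genes of chromosome 13 the A375 median was -0.40. In CHL1 the corresponding medians were -0.11 for RB1 with 2 of 20 called lower and 1 higher, -0.09 for TFDP1 with 1 of 16 called lower and 1 higher, against 12.1% of all genes called lower, and -0.11 over 233 genes of the chromosome, all smaller in size than the changes of -0.22 and -0.21 in these 2 genes. The part of the surroundings in the RB1 and TFDP1 values was not tested.

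The other called members differed from their surroundings to varying degrees. E2F5 had 20 neighbours with a median of -0.01 in A375, 4 called higher and 2 lower, and of -0.03 in CHL1, 0 called higher and 3 lower. Among its 40 nearest genes in A375, 10 were called higher, against 13.4% of all genes, and 2 lower. RBL1 had 20 neighbours with a median of 0.00 in A375, 1 called higher and 5 lower, and of 0.06 in CHL1, 1 called higher and 1 lower. Neither A375 median was near the members' own A375 values of 0.89 and -0.34. E2F4 changed by -0.21 in A375 beside a neighbour median of -0.16, with 3 of 20 neighbours called lower. E2F3 changed by 0.13 in CHL1 beside a neighbour median of 0.07, with 4 of 20 neighbours called higher and 0 lower. Over the 40 nearest genes that median was 0.01. TFDP2 lies on chromosome 3, where in CHL1 16 of its 20 neighbours were called lower with a median of -0.37, against -0.14 for TFDP2.

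**Figure D3:**
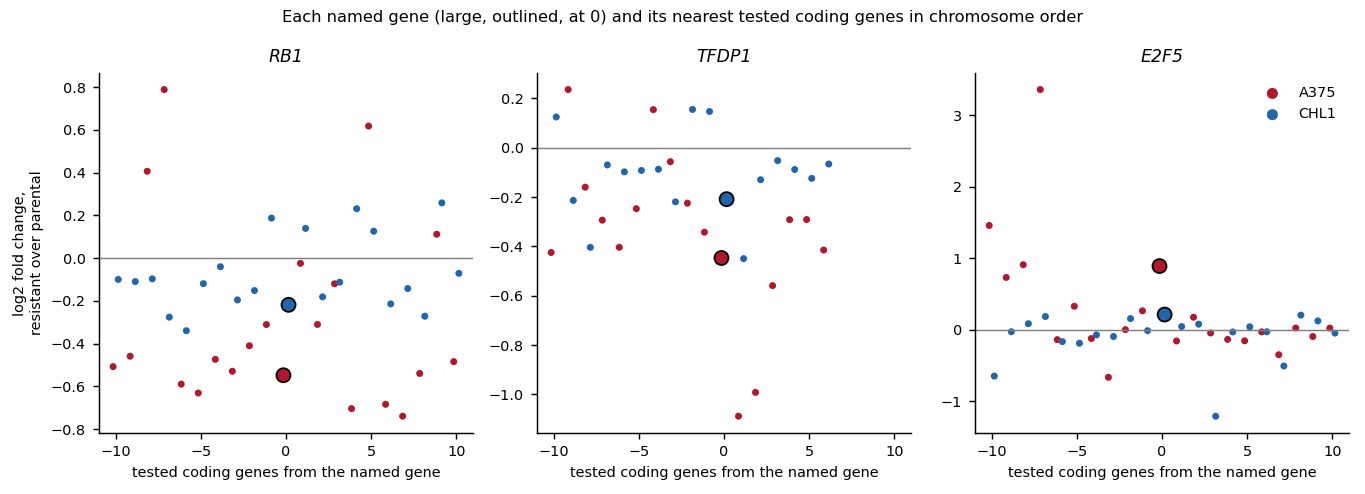
Log2 fold change of resistant over parental cells for RB1, TFDP1 and E2F5 (large outlined points at 0) and for up to 10 tested coding genes on each side in chromosome order, in A375 and CHL1, with a separate vertical scale in each panel. Most A375 neighbours of RB1 and TFDP1 lie below 0, with medians of -0.47 and -0.29, while those of E2F5 scatter about 0 with a median of -0.01.

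Genes around the RB-E2F switch were counted by list. Of the 37 tested G1/S target genes of E2F, 3 rose and 1 fell in A375, with a median of 0.10. The 3 were GINS1 (0.36 ± 0.07), a replication helicase subunit, TYMS (0.32 ± 0.06), the thymidylate synthase, and EZH2 (0.21 ± 0.05), a histone methyltransferase, and the 1 was POLA2 (-0.34 ± 0.08), a subunit of DNA polymerase alpha. The EZH2 call was lost without resistant replicate 1 (adjusted p = 0.0704) or 2 (0.0594) and without parental replicate 1 (0.0586) or 3 (0.0792). In CHL1, 6 rose and 4 fell of 37 with a median of 0.04. POLA2 (0.24 ± 0.05) and the flap endonuclease FEN1 (0.19 ± 0.04) were among the higher genes. The phosphatase CDC25A (-0.41 ± 0.05) and the helicase subunit MCM2 (-0.37 ± 0.05) were among the lower. CDC25A and MCM2 lie on chromosome 3, where the CHL1 median over 737 tested coding genes was -0.34. The part of these surroundings in their values was not tested. The summed level of the 37 genes was 5602 ± 120 CPM in resistant A375 and 5305 ± 433 CPM in parental A375, and 5609 ± 150 CPM in resistant CHL1 and 5474 ± 128 CPM in parental CHL1 (SD, n = 3 each). The ranges of the libraries overlapped in both lines. The called shares of this list, 4 of 37 in A375 and 10 of 37 in CHL1, stood beside 28.3% and 21.2% of all genes.

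Among 14 tested kinases, cyclins and inhibitors acting on the pocket proteins in A375, 2 rose and 2 fell, 4 of 14 against 28.3% of all genes. CCNE1, the cyclin E that activates CDK2, rose by 0.71 ± 0.09 and the CDK inhibitor CDKN1A (p21) by 0.74 ± 0.08, while the inhibitors CDKN2D (-0.77 ± 0.10) and CDKN1C (-1.60 ± 0.25) fell. In CHL1, 6 of 15 rose and 2 fell, 8 of 15 against 21.2% of all genes, led by CCNE1 (1.59 ± 0.05), the drug target CDK6 (1.39 ± 0.10) and the CDK4 and CDK6 inhibitor CDKN2C (0.51 ± 0.07), with CDK2 (-0.29 ± 0.05) lower. CCNE1 was thus called higher in both lines beside a lower RB1.

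Of the 10 RB corepressor partners, 1 was called in A375, against 28.3% of all genes. It was SIN3B (-0.34 ± 0.08), a scaffold of histone deacetylase complexes. In CHL1, 2 rose and 3 fell, 5 of 10 against 21.2% of all genes, among them the deacetylases HDAC1 (-0.40 ± 0.04) and HDAC2 (0.14 ± 0.04). The HDAC2 call was lost without resistant replicate 1 (adjusted p = 0.0857) or 3 (0.0656) and without parental replicate 1 (0.111) or 2 (0.0832). The list of DREAM and MuvB partners had 0 of 8 called in A375 by edgeR, by DESeq2 and by limma-voom. In each, 2 of 8 had an unadjusted p below 0.05. In CHL1, 1 of 8 was called, the DNA-binding subunit LIN54 (0.18 ± 0.06). That call was lost without resistant replicate 1 (adjusted p = 0.117) or 3 (0.0640), without parental replicate 1 (0.0571), 2 (0.0664) or 3 (0.117), and in the fit of all 12 libraries (0.0692). The list's shares again stand beside 28.3% of all genes in A375 and 21.2% in CHL1.

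The second question was how the members differed between the lines, in a fit of all 12 libraries with A375 over CHL1. Between resistant lines all 10 members were called, against 76.6% of all genes, and between parental lines 8 of 10, against 75.6%, so a call here sets the members apart little. Groups did not overlap for 10 members between resistant lines, against 79.2% of genes, and for 7 between parental lines, against 77.2%. A 2-fold difference was passed by 3 members between resistant lines, against 39.0% of genes, and by 4 between parental lines, against 37.5%. The median of all genes was 0.025 between parental and 0.007 between resistant lines, and scaling by library totals or upper quartiles brought it to as much as 0.155. The direction of every called member held under these 2 scalings. Both lost the edgeR calls of E2F1 between parental lines (adjusted p = 0.142 and 0.152) and of E2F8 between resistant lines (0.102 and 0.149).

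The 3 members higher in A375 in both states were E2F4, E2F7 and RBL2, where 38.0% of genes were called higher between resistant and 38.2% between parental lines. Called lower in A375 were 7 members between resistant lines, against 38.6% of genes, and 5 between parental lines, against 37.4%. E2F4 averaged 175 ± 2.75 CPM in resistant A375 and 58.6 ± 2.89 CPM in resistant CHL1, and 202 ± 11.3 CPM in parental A375 and 59.8 ± 0.653 CPM in parental CHL1 (SD, n = 3 each). The log2 differences were 1.58 ± 0.05 (edgeR adjusted p = 7.53e-13) between resistant and 1.76 ± 0.05 (edgeR adjusted p = 2.48e-13) between parental lines, a 2.99-fold and a 3.38-fold higher level. E2F7 was higher by 0.96 ± 0.11 between resistant and 0.56 ± 0.11 between parental lines, and RBL2 by 0.38 ± 0.08 and 0.62 ± 0.08.

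The activators were lower in A375. E2F3 averaged 57.6 ± 2.97 CPM in resistant A375 and 145 ± 2.02 CPM in resistant CHL1, and 50.0 ± 4.47 CPM in parental A375 and 132 ± 0.694 CPM in parental CHL1 (SD, n = 3 each), log2 differences of -1.33 ± 0.06 (edgeR adjusted p = 2.71e-11) and -1.40 ± 0.06 (edgeR adjusted p = 1.78e-11). E2F2 differed by -1.58 ± 0.09 between resistant and -1.28 ± 0.09 between parental lines. E2F1 differed by -0.49 ± 0.13 (edgeR adjusted p = 0.0038) between resistant lines. Between parental lines its libraries overlapped, and the call of its difference of -0.33 ± 0.13 (edgeR adjusted p = 0.036) was lost in 8 alternatives, among them without A375 replicate 1 (0.177) or 3 (0.101) and without CHL1 replicate 1 (0.105), 2 (0.0567) or 3 (0.0504).

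The remaining members were lower in A375 or alike. RBL1 was lower by -0.94 ± 0.07 (edgeR adjusted p = 4.26e-09) between resistant and -0.49 ± 0.07 (edgeR adjusted p = 7.24e-06) between parental lines. E2F5 was lower by -0.47 ± 0.12 between resistant and -1.15 ± 0.12 between parental lines. RB1 was lower by -0.32 ± 0.06 (edgeR adjusted p = 0.00030) between resistant lines, whereas between parental lines the 95% interval of its log2 difference ran from -0.11 to 0.14. E2F8 was lower by -0.40 ± 0.15 (edgeR adjusted p = 0.026) between resistant lines, a call lost in 6 alternatives, among them without A375 replicate 1 (0.0636) or 3 (0.159) and without CHL1 replicate 1 (0.0917). Between parental lines E2F8 was not called (-0.17 ± 0.15), but it was without A375 replicate 2 (adjusted p = 0.012).

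**Figure D4:**
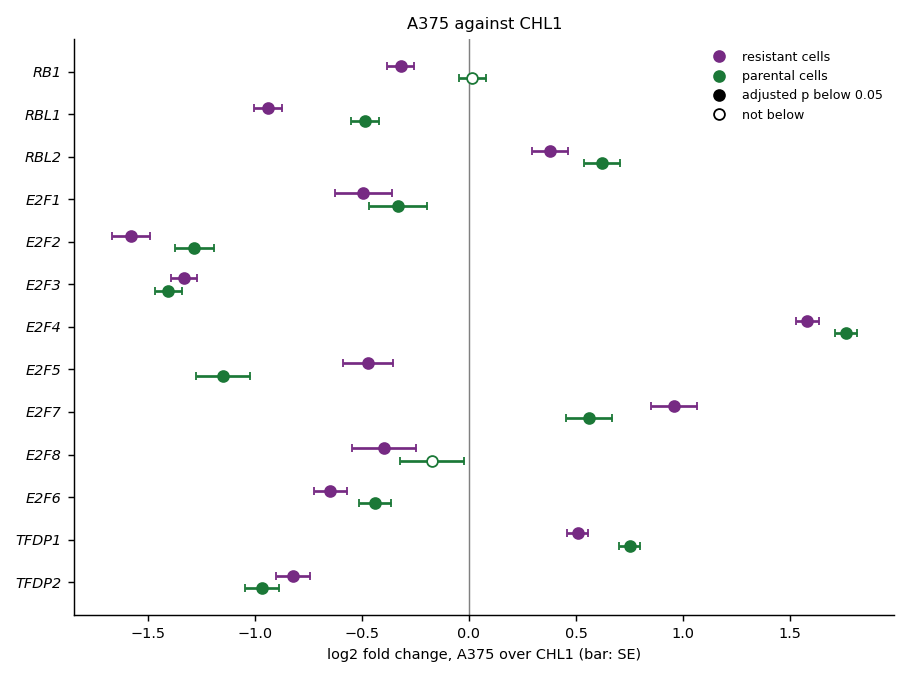
Log2 fold change of A375 over CHL1 (points) with SE (bars) between resistant and between parental cells, in 1 fit of all 12 libraries, with filled points where the edgeR adjusted p was below 0.05. E2F4, E2F7, RBL2 and TFDP1 lie right of 0 in both states, and RB1 and E2F8 have an open point between parental cells.

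Set beside the promoters printed above, the 4 members with an E2F octamer, E2F1, E2F2, E2F3 and RBL1, were all lower in A375 than in CHL1 in both states, and RBL2, E2F4 and E2F7, whose windows held none, were higher. The partner genes went the other way. TFDP1 has an octamer at -120 and was higher in A375 by 0.51 ± 0.05 between resistant and 0.75 ± 0.05 between parental lines. E2F6 and TFDP2 have windows without one and were lower in A375, E2F6 by -0.65 ± 0.08 between resistant and -0.44 ± 0.08 between parental lines, and TFDP2 by -0.82 ± 0.08 and -0.96 ± 0.08. The 1 window listed for RB1, set aside above, held no octamer either. RB1 was lower in A375 by -0.32 ± 0.06 between resistant lines and was not called between parental lines. The split among the members was seen after the values and was not tested.

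Whether resistance moved a member differently in the lines was tested as the A375 effect minus the CHL1 effect. It passed for 3 of 10 members, against 23.6% of all genes. E2F5 rose more in A375, by 0.67 ± 0.17 (edgeR adjusted p = 0.0099). RB1 fell more in A375, by -0.33 ± 0.09 (edgeR adjusted p = 0.013), and RBL1 differed by -0.45 ± 0.09 (edgeR adjusted p = 0.0025). These 3 calls held in all 20 alternatives. E2F7 did not pass (0.40 ± 0.15, edgeR adjusted p = 0.073), but did without A375 resistant replicate 1 (0.0486) or 3 (0.0343), A375 parental replicate 2 (0.0479) or CHL1 parental replicate 3 (0.0411). E2F2 (-0.30 ± 0.13, edgeR adjusted p = 0.11) did without A375 resistant replicate 1 (0.0407).

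Levels of different genes were compared per kilobase of exon, with lengths from GENCODE release 29. RB1 was the most abundant pocket protein transcript in all 4 groups. It made up 46.3% ± 0.307 of the summed pocket protein CPM per kb in resistant A375 and 51.3% ± 2.41 in parental A375, and 44.6% ± 0.578 in resistant CHL1 and 50.0% ± 0.286 in parental CHL1 (SD, n = 3 each). The share of RBL2 was 27.1% in resistant and 23.0% in parental A375, and 16.1% in resistant and 14.8% in parental CHL1. That of RBL1 was 26.6% in resistant and 25.6% in parental A375, and 39.4% in resistant and 35.2% in parental CHL1. In both lines the share of RB1 was lower in resistant cells without overlap of the libraries.

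The E2F make-up differed mostly by line. E2F4 made up 44.6% ± 2.58 of the summed E2F CPM per kb in resistant A375 and 49.0% ± 4.36 in parental A375, against 15.3% ± 0.901 in resistant and 16.1% ± 0.567 in parental CHL1 (SD, n = 3 each), and was the most abundant in A375, while E2F1 and E2F3 stood above it in CHL1. E2F1 was the most abundant in CHL1, with 35.5% in resistant and 35.3% in parental cells, and 24.6% in resistant and 24.8% in parental A375. E2F3 held 10.1% in resistant and 8.39% in parental A375, and 26.2% in resistant and 24.8% in parental CHL1. E2F5 was the least abundant per kb in every group, at 2.20% in resistant and 1.13% in parental A375, and 3.12% in resistant and 2.78% in parental CHL1.

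**Figure D5:**
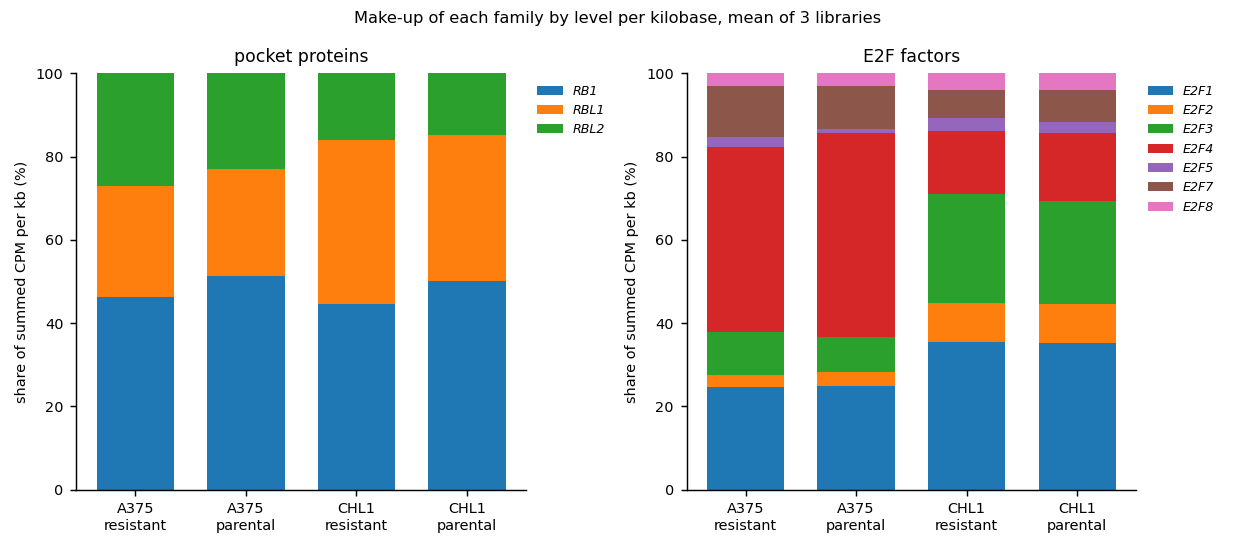
Share of each gene in the summed CPM per kb of exon of the 3 pocket proteins and of the 7 E2F factors (bars stack to 100%, means of 3 libraries). RB1 takes 46.3% in resistant and 51.3% in parental A375, and E2F4 takes 44.6% and 49.0% there against 15.3% and 16.1% in CHL1.

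The order of the 4 group means fell into a few forms. E2F1, E2F2, RBL1 and E2F8 were highest in resistant CHL1, then parental CHL1, parental A375 and resistant A375, and E2F3 and E2F5 had the same CHL1 order followed by resistant and then parental A375. RB1 ran from parental A375 through parental and resistant CHL1 to resistant A375. RBL2 and E2F4 were highest in parental A375, then resistant A375, followed by resistant and parental CHL1 for RBL2 and by parental and resistant CHL1 for E2F4, while E2F7 ran from resistant and parental A375 to parental and resistant CHL1. Neighbours in these orders within a line passed the test for RBL1, E2F4 and E2F5 in A375 and for RB1 and E2F3 in CHL1, and the other such pairs did not. The span from highest to lowest group mean was 3.45-fold for E2F4, 2.99-fold for E2F2, 2.90-fold for E2F3 and 2.60-fold for E2F5, and between 1.33-fold and 1.92-fold for the other 6 members.

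For the 4 members that spanned at least 2-fold, the 3 genes with the most similar pattern were sought among 17380 genes by the root-mean-square difference of centred log2 CPM over the 12 libraries. For E2F4 these were TPD52L2 (0.0524), STK10 (0.0735) and HMGA1 (0.0788), and for E2F3 they were HDAC2 (0.0607), TMEM97 (0.0644) and STARD7 (0.0703). For E2F2 they were ATAD2 (0.0996), RAPGEF1 (0.103) and MRS2 (0.106). E2F5 had no gene as near, the closest being NOL4L (0.165), CCDC18 (0.173) and C8orf48 (0.176). This distance includes the spread among libraries of a group. E2F5 had the fewest reads of the members, and its parental A375 replicate 2 lay -0.33 log2 units from the group mean. The larger distance therefore does not by itself set its pattern apart. All these matches share the contrast of the 2 lines, which 75.6% of genes passed between parental cells.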

How the data were processed

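Total RNA of 12 samples was made into libraries with the TruSeq RNA v2 kit, per the labels, which does not mark strand. The authors deposited raw read counts per Ensembl gene, 1 table per cell line. Tools listed in the submitters' processing notes are CASAVA 1.8.2 and cutadapt 1.7, TopHat2 and HTSeq 0.5, and limma. Build and annotation were not given in the sources used here. Symbols came from a table of gene names and from GENCODE release 29, which gave exon lengths and gene order.

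Counts were tested in R 4.3.3 with edgeR 4.0.16 (TMM factors, filterByExpr defaults, quasi-likelihood F-test, two-sided). Each line was fitted alone, and the lines were compared in a fit of all 12 libraries over the 29735 genes in both tables. Each SE was obtained from the test, as the size of the log2 fold change over the root of its F value. Alternatives used DESeq2 1.42.0, limma-voom (limma 3.58.1), other scalings, filters and samples. The scripts were tested on simulated data. No libraries were duplicates, since replicates differed by chi-square values of 5.66 to 16.9 per degree of freedom.

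Groups were taken from the labels. Members and lists were chosen with earlier results of these data known. Named were the members, TFDP1, TFDP2 and E2F6, up to 4 called genes per list and line with the smallest adjusted p, and the 3 genes most like each member spanning at least 2-fold. AKTIP and RBIS were named for their overlap. Figures used Python 3.11.15 with matplotlib 3.10.9. Floors and intervals cover counting error or library spread only, and the reads carry no molecular identifiers.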

Additional observations from a re-analysis of the deposited data

Results flagged for a closer look

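The effect of resistance differed between the lines, by the interaction of the 12-library fit with edgeR adjusted p below 0.05, for 14 of the named genes. Values are the A375 log2 fold change minus the CHL1 one. Among the pocket proteins and E2F factors these were RB1 (-0.33), RBL1 (-0.45) and E2F5 (0.67), and among their partners TFDP1 (-0.24). The TFDP1 call was lost without A375 resistant replicate 2 (adjusted p = 0.103) or 3 (0.0932), A375 parental replicate 2 (0.0838), or CHL1 parental replicate 1 (0.0502) or 3 (0.0703).

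Among kinases, cyclins and inhibitors the effect was lower in A375 for CDK6 (-1.48), CCNE1 (-0.88), CDKN1C (-2.09), CDKN2C (-0.70) and CDKN2D (-0.84), and higher for CDKN1A (0.61). It was higher in A375 for the deacetylase HDAC1 (0.36) and for the E2F targets MCM2 (0.40) and CDC25A (0.49), and lower for POLA2 (-0.58). MCM2 and CDC25A lie on chromosome 3, whose tested coding genes had a median of -0.34 in CHL1 and -0.006 in A375. The part of these surroundings in their values was not tested. The CDC25A call was lost without A375 resistant replicate 2 (adjusted p = 0.0530), A375 parental replicate 3 (0.0549), CHL1 resistant replicate 1 (0.0623), 2 (0.0584) or 3 (0.0530), or CHL1 parental replicate 1 (0.0730) or 2 (0.0593).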

How the results depend on the processing

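Of 50 member results (10 members in 5 comparisons), 37 kept their side of the threshold in each of the 15 to 20 alternatives run, and every called member kept its direction. The calls of RB1 in both lines and of E2F5 in A375 were among them. The number of members called ranged from 2 to 5 in A375 (main 4), 1 to 2 in CHL1 (main 2) and 3 to 5 for the difference between lines (main 3) when 1 library was left out. In CHL1 DESeq2 and the fit of all 12 libraries called 1. The cause was not tested. The median of the genes around TFDP2 in A375 was -0.10 with the 10 nearest genes, against 0.01 with 20. Numbers of genes called stayed within 1.5 times of the main count in every alternative.

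The labels number replicates 1 to 3 in each group. Deviations of same-numbered libraries correlated over genes by 0.263, 0.274 and -0.00679 in A375 and by 0.146, 0.00665 and 0.0328 in CHL1. Replicates 1 and 2 of A375 and replicate 1 of CHL1 were most like their own number, and the others were not. What same-numbered libraries share beyond the number was not tested, and the main tests use no block. With the replicate number as a block, 6 members were called in A375 (RBL2 and E2F3 added), 4 in CHL1 and 5 for the difference between lines. Genes called were then 6307, 4305 and 5364, against 5111, 3645 and 4536 in the main tests. No paired analysis was possible because replicate numbers lie within a line for the comparisons of A375 with CHL1.

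The fewest reads of any member in a library were 163, for E2F5, and each group had 3 libraries.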
